A study of Mus musculus with 8 samples.

Results

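The genes of the cytosolic ribosomal proteins were followed in the hippocampus of young and very old mice. Hand dissected hippocampi came from untreated wild type mice of the C57BL/6J strain. They were taken at 3 months (3M, n = 4) and at 29 months of age (29M, n = 4). The study's methods state that mice of the older age were bought already aged and then kept on in the authors' holding rooms. The RNA of each sample was labelled with Cy3 and hybridised to its own 1-colour whole-genome microarray, on which the brightness of a probe reports the abundance of the transcript it binds. The labels give no further difference between the groups, and they do not say that the 4 samples of a group came from separate mice, so that p-values measure the spread between these samples only. A member was any gene whose symbol reads Rpl or Rps with a number, or Rplp with a digit, followed by at most 1 letter. By this rule 79 of 19751 named genes on the array were members, 49 of the large and 30 of the small subunit, and they were read by 161 of 39429 probes. Of 83 annotated mouse genes that carry such a symbol, 4 had no matched probe (Rps23, Rpl32l and the pseudogenes Rpl6l and Rpl32p). Rps4l, which is a member by its symbol, is annotated as a transcribed pseudogene.

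The cytosolic ribosome translates the mRNAs of nuclear genes. Its small subunit decodes the mRNA, its large subunit joins the amino acids, and each consists of ribosomal RNA and a set of proteins that are mostly needed in equal amounts. Most mRNAs of these proteins begin with a run of pyrimidines, the terminal oligopyrimidine tract, through which mTOR signalling sets how well they are translated, largely without altering their level. In neurons, ribosomes are found in the cell body and in dendrites, where new protein is made for lasting changes at synapses. Processed pseudogenes with nearly the same sequence exist for most members, so that a probe may also bind transcripts other than that of its gene, and the probe sequences were not analysed here.

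As examples of the start of these transcripts, the 30 bases around the start site are printed for some members. The window holds 12 bases before the start and 18 from it on (mouse build GRCm38.p6, RefSeq). The genes are the kinase target Rps6, the stalk protein gene Rplp2, and Rpl35 and Rpl28, which are described below. The tissue-restricted relatives Rpl39l, Rpl10l and Rpl3l follow. Capitals mark the longest run of C and T of at least 5 bases anywhere in the window. In Rpl39l and Rpl10l the marked run ends before the start.
Rps6, chr4:86857350-86857379, minus strand: cggaagtcgggCCTCTTTTTCgtgacgcct
Rplp2, chr7:141447639-141447668, plus strand: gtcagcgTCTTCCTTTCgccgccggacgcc
Rpl35, chr2:39005114-39005143, minus strand: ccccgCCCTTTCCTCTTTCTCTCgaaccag
Rpl28, chr7:4792953-4792982, plus strand: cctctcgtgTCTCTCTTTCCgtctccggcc
Rpl39l, chr16:10170216-10170245, plus strand: ccaggCCTTTCCggatttccggtggtcgcc
Rpl10l, chr12:66284384-66284413, minus strand: ggCCTCCattttgcggctggcggtgggcac
Rpl3l, chr17:24727814-24727843, plus strand: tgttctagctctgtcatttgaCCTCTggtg
The runs are long in the first 4 genes and short in Rpl10l and Rpl3l. Short runs are not particular to the tissue-restricted relatives. The longest run was of 3 bases in Rpl5 and Rpl41 and of 2 in Rps3. The starts are annotated ones, and their accuracy was not tested. At the annotated starts of Rpl35a, for instance, the longest runs were of 4, 13 and 5 bases. A short run here thus does not show that the mRNA lacks the tract. A promoter was listed for 58 of the 79 members (70 start sites), and 34 of these 70 windows (48.6%) held a run of C and T of at least 7 bases. The same held for 14.7% of 75 windows of mitochondrial ribosomal protein genes and for 18.1% of the 32851 windows of all genes in the table. In the 300 bases from 250 before to 50 after the start, 3 motifs that do not contain each other were searched on both strands. The motif CCGGAAGT was present in 15.7% of member promoters and in 3.89% of all, AAGATGG in 15.7% and 6.34%, and TATAAA in 8.57% and 13.6%. CCGGAAGT and AAGATGG were about as frequent in the promoters of mitochondrial ribosomal protein genes (16.0% and 17.3%) as in those of the members. These matches are descriptions of sequence and say nothing of which factors bind.

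Each array carried 43020 spots that were not controls, of which 76.2% to 85.0% were well above background and none was saturated. Normalized values of any 2 arrays correlated across probes with r between 0.992 and 0.998, where probes are not independent replicates. The arrays lay on 3 slides, each scanned in 1 run. Slide 1 held 3M replicate 1 with 29M replicates 3 and 4, slide 2 held replicate 2 of both groups, and slide 3 held 3M replicates 3 and 4 with 29M replicate 1. Only 3M replicate 1 was marked for evaluation by the extraction software. All 15 neuron markers, among them Rbfox3, Snap25 and the granule cell gene Prox1, were well above background on all 8 arrays. They thus did not go against the labelled tissue. The markers of other cell types given below were also above background, so this check cannot tell the hippocampus from other brain tissue.

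Ribosomal protein transcripts were bright in both age groups and their levels lay close together. Of the 161 member probes, 157 were well above background on all 8 arrays, the exceptions being both probes of Rpl10l, the probe of Rpl39l and 1 probe of Rps27a. No member passed the test. A call required an adjusted p under 0.1 in limma's moderated test across 39408 probes together with a log2 change of 0.5 or more in either direction. By this rule 0 of 161 member probes were called higher in 29M and 0 lower, beside 1.21% and 0.708% of all tested probes, or 1.92% in all. At an unadjusted p under 0.05 there were 13 member probes (8.07%), beside 16.3% of all probes. Of these 10 were higher in 29M (6.21%, beside 8.11% of all probes) and 3 were lower (1.86%, beside 8.22%). The lowest adjusted p of a member probe was 0.138, for a probe of Rpl23 with a log2 change of 0.29 (SE 0.08).

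The differences of single members were small. Here and below the log2 change is 29M minus 3M on the normalized log2 intensity scale, and each gene is represented by whichever of its probes was brightest on average over all 8 arrays. Over all 161 member probes the changes ran from -0.42 to 0.41. Over the 79 genes they ran from -0.23 (Rps4l) to 0.41 (Rps14), with a median of 0.054, beside 0.00096 over all tested probes and 0.014 over all named genes. They were under 0.1 in size for 50 members (63.3%, beside 43.7% of named genes) and at least 0.25 for 4 (5.06%, beside 20.6%). The named genes and all probes also included dim ones and were not matched to the members for brightness. The median SD between arrays of a group was 0.12 for members and 0.16 for all named genes, and the median SE of a member's change was 0.10. With that SE a change of at least 0.37 would have reached an adjusted p of 0.1. The 95% interval of the change lay wholly between -0.5 and 0.5 for 151 of 161 member probes (93.8%, beside 71.9% of all probes). Among genes this held for 73 of 79, and the exceptions included Rps14, Rpl5, Rplp0, Rps19 and Rpl39l, whose intervals reached above 0.5.

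**Figure D1:**
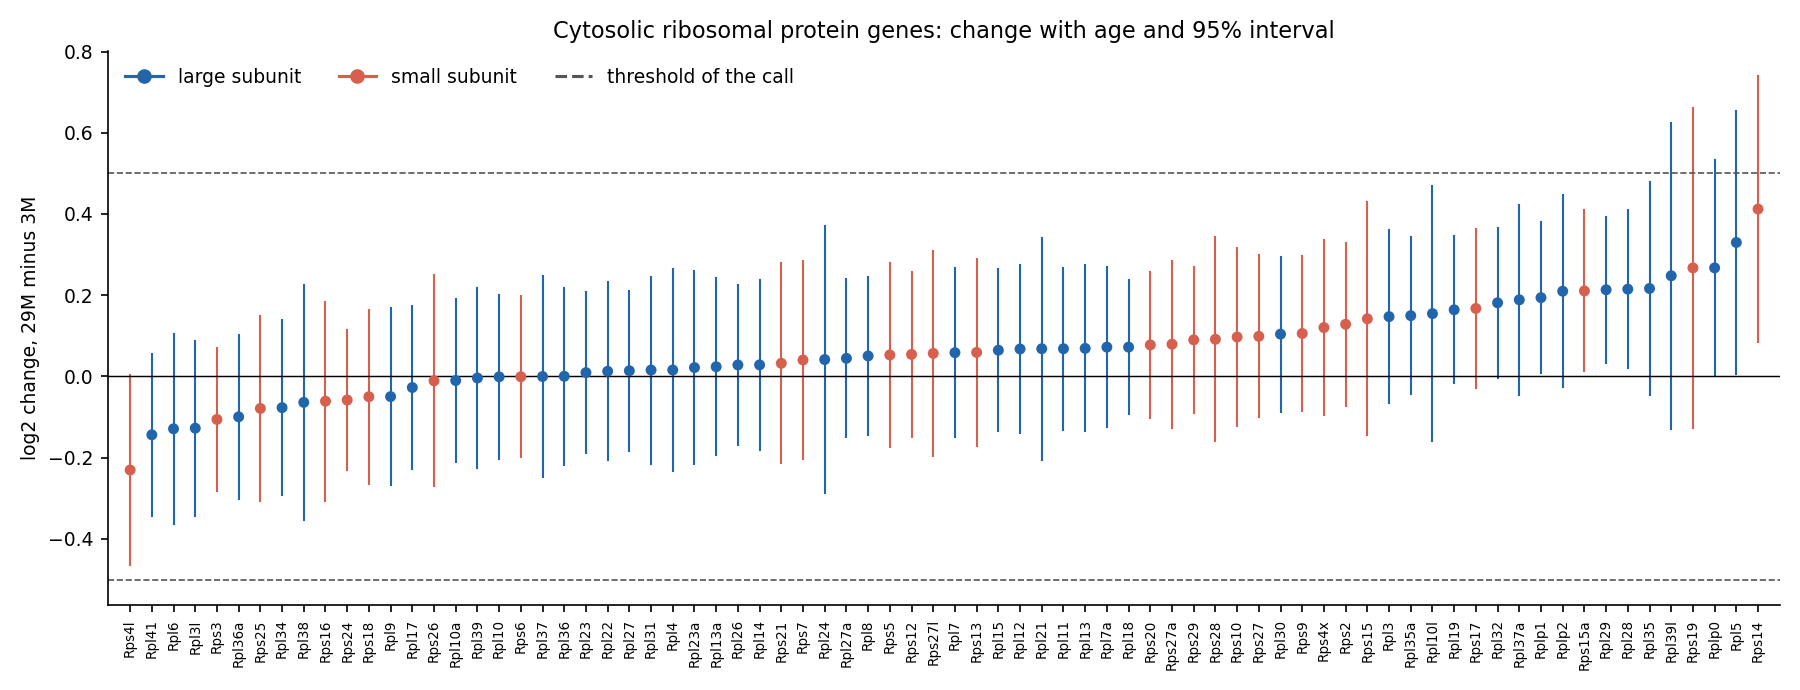
The log2 change (29M minus 3M) of 76 of the 79 ribosomal protein genes with its 95% interval from limma (n = 4 arrays per group), ordered by size and coloured by subunit. The dashed lines mark the log2 change of 0.5 that a call requires. The points run from -0.23 (Rps4l) to 0.41 (Rps14), and 56 of the 76 lie above 0.

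Of the 79 genes, 57 lay above 0 and 22 below. The large subunit had a median change of 0.045 with 37 of 49 genes above 0, and the small subunit a median of 0.058 with 20 of 30 above 0. Among all tested probes 50.2% lay above 0, and among member probes 113 of 161 (70.2%). This lean to the side of 29M was uneven over the slides. On slide 1 the median change within the slide was 0.091 and 67 of 79 genes lay above 0, on slide 2 it was 0.0091 with 41 genes above 0, and on slide 3 it was -0.024 with 37 above 0. With slide as a fixed block the median was 0.025 with 49 genes above 0, and with slide as a random block it was 0.049 with 56 above 0. Without the 3 arrays of slide 1, left out because the lean was largest there, it was -0.025 with 36 genes above 0, which describes the other slides and is no independent test of the lean.

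The levels on the arrays were as follows. With each gene centred on its mean over the 8 arrays, the median of the 79 genes was 0.097 on 29M replicate 3 and 0.12 on 29M replicate 4, where 67 and 66 genes were above their own mean. It was -0.069 on 29M replicate 1 and -0.071 on 29M replicate 2. In 3M it was 0.017 on replicate 1, -0.074 on replicate 2, -0.061 on replicate 3 and -0.025 on replicate 4. So the highest values were those of the 29M arrays of slide 1, the 3M array of that slide was the highest of its group, and the other 29M arrays lay within the range of 3M. Both subunits were highest on these 29M arrays, with medians of 0.097 and 0.094 on replicate 3 and of 0.10 and 0.14 on replicate 4 for the large and the small subunit. On 29M replicates 1 and 2 the small subunit, at -0.085 and -0.072, lay below every 3M array, the lowest of which was at -0.057. The median over all probes was between -0.0068 and 0.00039 on every array. The arrays of slide 1 also had the smallest shares of spots well above background (76.2%, 80.6% and 78.9%, beside 81.7% to 85.0% on the other slides), and the part of this in the member values was not tested.

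**Figure D2:**
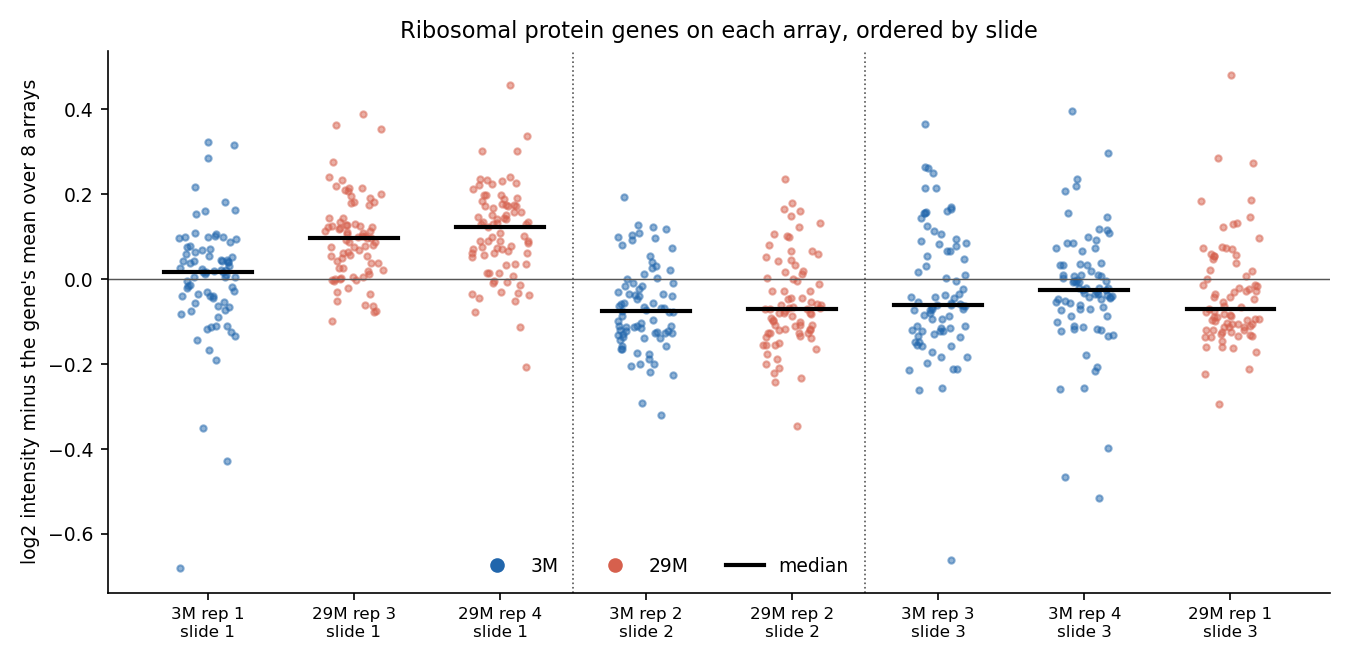
The normalized log2 intensity of each of the 79 ribosomal protein genes minus its mean over the 8 arrays, 1 point per gene, for every array, with the arrays ordered by slide and coloured by age group. Black bars are medians. The 29M arrays of slide 1 stand at 0.097 and 0.12, and all other arrays lie between -0.074 and 0.017.

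Within slides, 31 of the 79 genes kept 1 sign on all 3 (39.2%, beside 43.7% of named genes), 24 of them higher and 7 lower in 29M. Among the 19742 named genes 4600 were higher and 4035 lower on every slide. Those higher on every slide included the stalk genes Rplp0, Rplp1 and Rplp2, and also Rps14, Rps19 and Rpl5. Those lower on every slide included Rps4l, Rps3, Rps18, Rpl9 and Rpl22. These signs are those of the brightest probe. The other probes of Rps3 and Rps18 were higher in 29M on every slide, and that of Rpl9 changed sign between slides. Over all arrays the change of Rpl22 was above 0 (0.013). The slide values rest on 1 or 2 arrays per group, and no test was made within a slide.

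**Figure D3:**
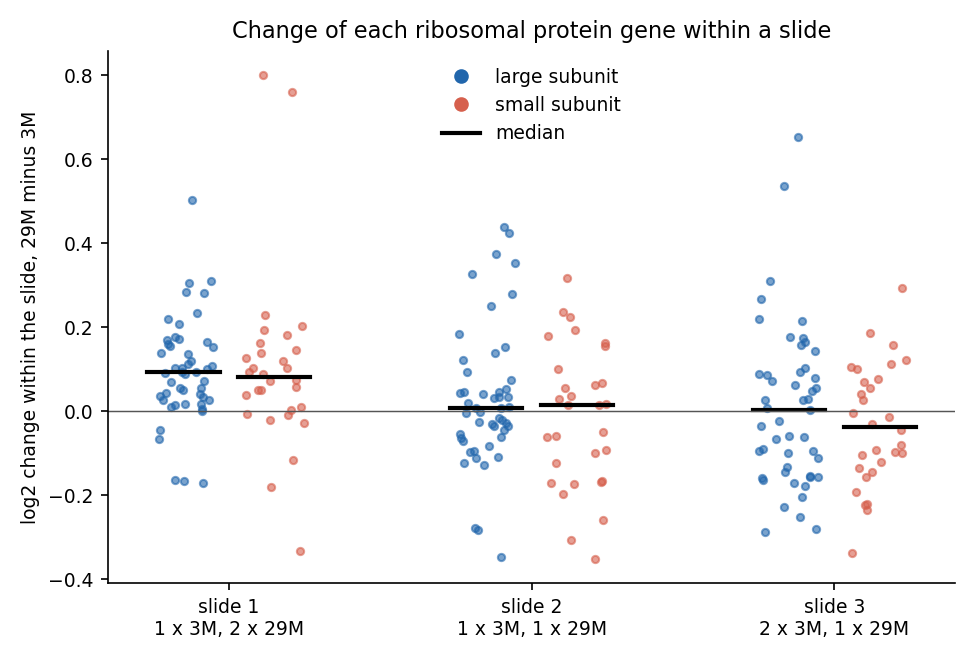
The log2 change (29M minus 3M) of each ribosomal protein gene within each of the 3 slides, 1 point per gene, separated by subunit, with black bars for the medians. The axis labels give the arrays per group. Over all genes the medians are 0.091, 0.0091 and -0.024 on slides 1, 2 and 3.

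The stalk of the large subunit recruits the translation factors that drive initiation and elongation. Its base is Rplp0, which carries the acidic proteins Rplp1 and Rplp2. Rplp0 read 17.04, 16.92, 17.28 and 16.73 in 3M replicates 1 to 4 and 17.27, 17.36, 17.15 and 17.26 in 29M. Rplp1 read 17.34, 17.11, 17.26 and 17.21 in 3M and 17.40, 17.43, 17.52 and 17.34 in 29M. For Rplp2 the values were 17.63, 17.54, 17.92 and 17.55 in 3M and 17.95, 17.92, 17.90 and 17.72 in 29M.
All 4 values of Rplp1 in 29M lay above those in 3M, the highest of 3M and the lowest of 29M being equal to 2 decimals. In Rplp0 and Rplp2 the highest 3M array, replicate 3 in both, reached into the range of 29M. The log2 changes were 0.27 (SE 0.12, adjusted p = 0.300) for Rplp0, 0.19 (SE 0.08, adjusted p = 0.287) for Rplp1 and 0.21 (SE 0.11, adjusted p = 0.367) for Rplp2 in limma, so that none passed the test. Rplp0, Rplp1 and Rplp2 were higher in 29M on every slide, with values of 0.17, 0.44 and 0.27 for Rplp0 on slides 1, 2 and 3. With the processed signal scaled to the 75th percentile in place of the variance stabilised intensity, the changes were 0.11, 0.13 and 0.059, still above 0. The other probes of Rplp0 gave 0.24 and -0.010, the latter lower in 29M on every slide, so the probes of this gene did not read alike.

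The largest positive difference was that of Rps14, a protein of the platform of the small subunit. It read 17.62, 18.12, 18.04 and 17.58 in 3M and 18.10, 18.15, 18.25 and 18.50 in 29M. The 3M arrays fell into a higher and a lower pair, and replicate 2 of the higher pair reached just into the range of 29M. This gave a log2 change of 0.41 (SE 0.15, 1.33-fold, adjusted p = 0.204 in limma) with 0.76, 0.028 and 0.29 on slides 1, 2 and 3, and one of 0.27 with the processed signal scaled to the 75th percentile.
Rpl5, which binds ribosomal RNA before its entry into the large subunit and can hold back the p53 regulator Mdm2, read 16.07, 15.82, 16.02 and 15.51 in 3M and 16.08, 15.96, 16.39 and 16.32 in 29M. Here 29M replicates 3 and 4 stood above all others and 3M replicate 4 below. The log2 change was 0.33 (SE 0.15, adjusted p = 0.297 in limma), and it was 0.21 without 3M replicate 4 and 0.16 with the processed signal scaled to the 75th percentile.
Rps19, whose human counterpart is often mutated in Diamond-Blackfan anaemia, read 14.51, 15.31, 15.28 and 15.12 in 3M and 15.32, 15.35, 15.09 and 15.53 in 29M. The single low value of 3M replicate 1 set its change of 0.27 (SE 0.18, adjusted p = 0.504), which was 0.08 without that array and 0.17 with the processed signal scaled to the 75th percentile.
Rpl39l, the testis-enriched relative of Rpl39, was a dim transcript that was well above background on 2 of 4 arrays in 3M and on 4 of 4 in 29M. Its values were 6.34, 6.44, 5.72 and 6.54 in 3M and 6.67, 6.34, 6.57 and 6.46 in 29M. The change of 0.25 (SE 0.17, adjusted p = 0.519) was 0.07 without 3M replicate 3 and, with the processed signal, 0.79 when scaled to the 75th percentile and 0.41 when variance stabilised. What moved it was not tested.
Rpl35, a protein near the exit of the peptide tunnel, read 17.22, 17.68, 17.64 and 17.31 in 3M and 17.62, 17.65, 17.80 and 17.64 in 29M, a change of 0.22 (SE 0.12, adjusted p = 0.407) over groups that overlapped. It was 0.14 without 3M replicate 1 and 0.096 with the processed signal scaled to the 75th percentile.

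Among the negative differences, that of the pseudogene Rps4l was the largest. It read 14.50, 14.29, 14.23 and 14.14 in 3M and 13.96, 13.94, 14.10 and 14.23 in 29M, where 29M replicate 4 lay above 2 of the 3M arrays. Its log2 change was -0.23 (SE 0.11, adjusted p = 0.315 in limma), with -0.33, -0.35 and -0.22 on slides 1, 2 and 3.
Rpl41, the smallest protein of the ribosome, read 18.15, 18.26, 18.37 and 18.14 in 3M and 18.03, 17.98, 18.18 and 18.16 in 29M, and its change was -0.14 (SE 0.09, adjusted p = 0.475). Rpl6 had a change of -0.13 (SE 0.11, adjusted p = 0.598), Rpl3l, a relative of Rpl3 found mainly in striated muscle, one of -0.13 (SE 0.10, adjusted p = 0.564), and Rps3, which lines the entry of the mRNA channel, one of -0.11 (SE 0.08, adjusted p = 0.555). The dimmer probe of Rps3 went the other way, with a change of 0.24 (SE 0.10, adjusted p = 0.287 in limma). Without 3M replicate 3 the change of Rpl6 was -0.079. That of Rpl3l was -0.20 without 3M replicate 1, -0.069 without 3M replicate 4, -0.077 with normexp and quantile normalization and -0.072 with the variance stabilised processed signal. In Rps4l and in each of these genes the groups overlapped.

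**Figure D4:**
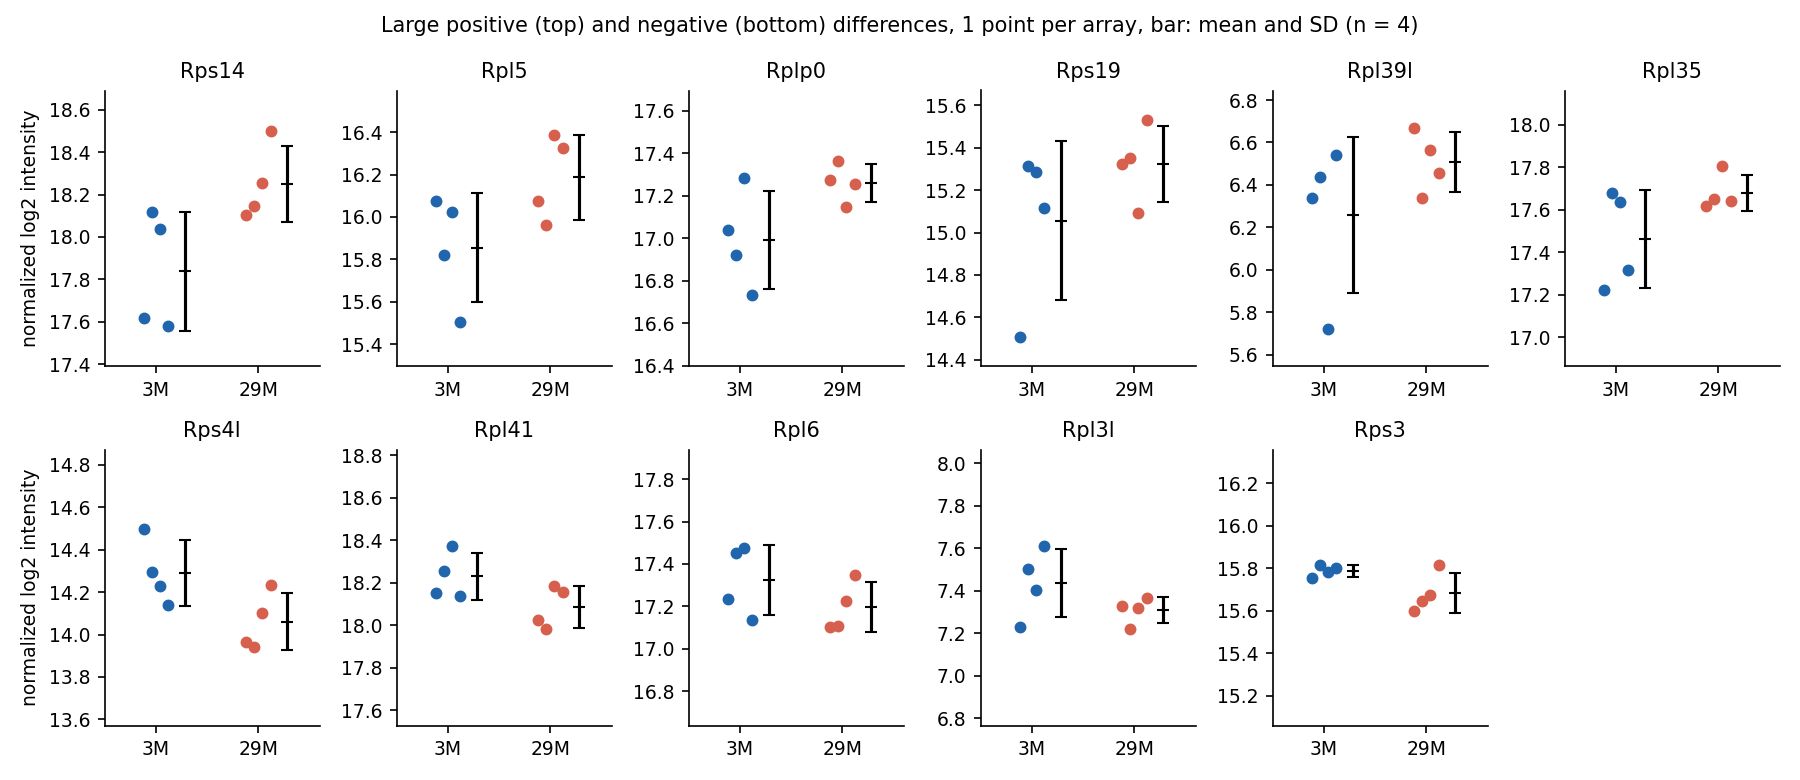
Normalized log2 intensity of the 6 ribosomal protein genes with the largest positive differences (top row) and of 5 with large negative differences (bottom row), 1 point per array (n = 4 per group), with the mean and SD beside each group. Every panel spans its own range of levels. The 3M and 29M points overlap in all 11 panels, and none of the 11 genes passed the test.

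The arrays of the age groups did not overlap for 6 member genes, all higher in 29M (named here for that reason): Rpl29, Rpl28, Rps15a, Rplp1, Rpl32 and Rpl35a. Counted over probes, the groups did not overlap for 11 of 161 (6.83%), beside 10.6% of all tested probes. Of these 10 were higher in 29M (6.21%, beside 5.34%) and 1 was lower (0.621%, beside 5.25%). Rpl29 ran from 16.80 to 16.92 in 3M and from 16.93 to 17.16 in 29M (log2 change 0.21, SE 0.08, adjusted p = 0.227). Rpl28 ran from 15.45 to 15.55 and from 15.62 to 15.90 (0.21, SE 0.09, adjusted p = 0.260), and Rps15a from 16.13 to 16.31 and from 16.35 to 16.61 (0.21, SE 0.09, adjusted p = 0.277). The gaps between the groups were narrow, and the changes of Rpl32 (0.18) and Rpl35a (0.15) were smaller still. On the other probes of Rpl29 (0.099), Rps15a (0.0077 and 0.28) and Rpl35a (0.036) the groups overlapped.

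The transcript of Rps6, whose protein is the classical target of the S6 kinases downstream of mTOR, lay near 0 in its change on its brightest probe. It read 17.25, 17.12, 17.29 and 17.16 in 3M and 17.08, 17.13, 17.26 and 17.34 in 29M, with a log2 change of -0.00059 (95% interval -0.20 to 0.20). Another probe read 16.57, 16.32, 16.50 and 16.51 in 3M and 16.74, 16.78, 16.65 and 16.68 in 29M, groups that did not overlap, with a change of 0.24 (SE 0.08, adjusted p = 0.201). The other probe gave 0.046 (SE 0.09). The changes read by the probes of this gene thus spanned 0.24.

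Such spread between probes was common. Of the 79 genes, 51 had several probes (133 in all). Probes of both signs were present in 30 of them, all probes were higher in 29M in 19 and all lower in 2 (Rpl6 and Rps25, named for their small number). The median range between the probes of a gene was 0.12, beside a median SE of 0.10 for a single probe. In 0 genes did probes of opposite sign each exceed 2 SE. Only 3 member probes were lower at an unadjusted p under 0.05 in limma, so this count had little room to be larger. Differences between the probes of a gene were not tested. Among the wider ranges was that of Rpl23 (0.41), with probes at 0.29 (adjusted p = 0.138), 0.0095 and -0.12. That of 0.29 read 16.70, 16.70, 16.93 and 16.81 in 3M and 16.97, 17.08, 17.12 and 17.10 in 29M.

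**Figure D5:**
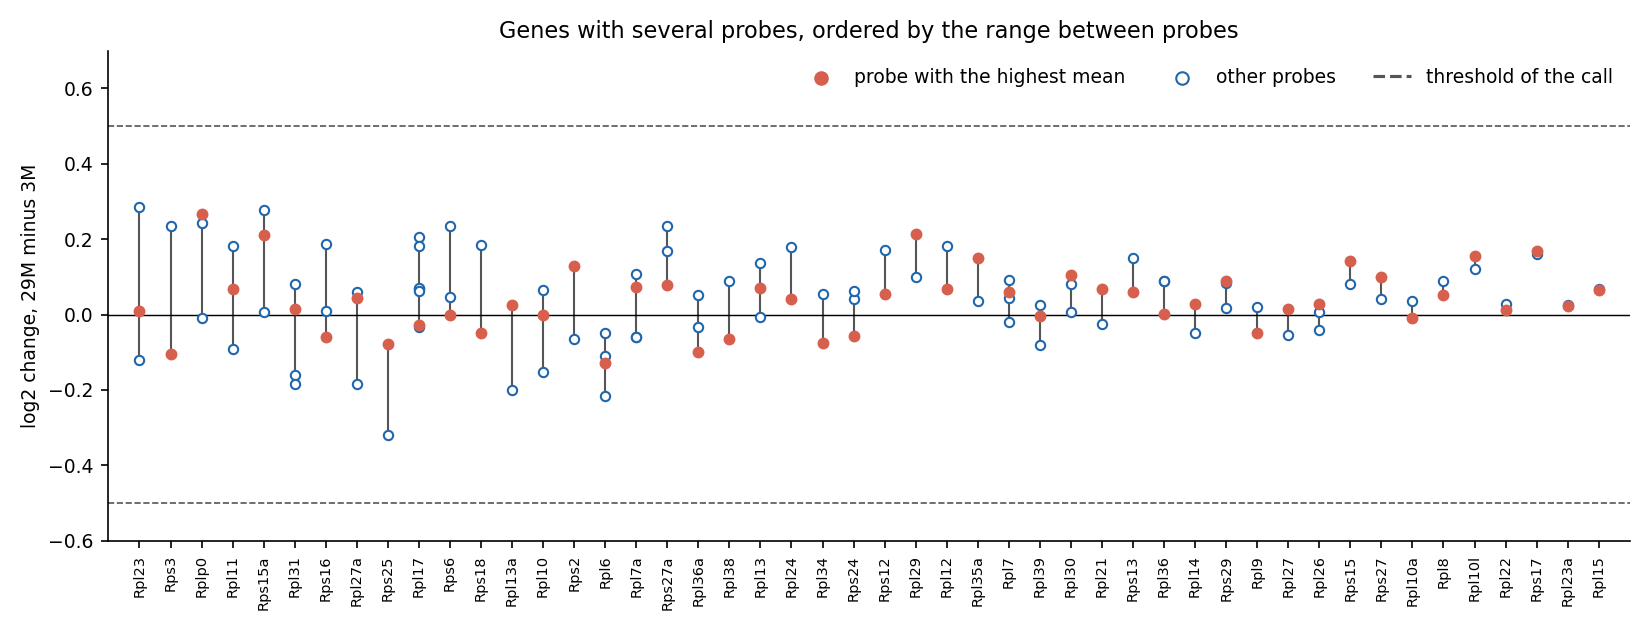
The log2 change (29M minus 3M) of every probe of 48 of the 51 ribosomal protein genes with several probes, ordered by the range between the probes of a gene. Filled points are the probe with the highest mean, open points the others, and dashed lines mark the change of 0.5 that a call requires. The ranges run across 0 in 27 of the 48 genes, and no probe reaches a dashed line.

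Several members have a paralogue that is used in other tissues or at lower level, and none of the genes of these pairs was called. Rpl3, next to the catalytic centre, had a log2 change of 0.15 (SE 0.10) and its muscle relative Rpl3l one of -0.13 (SE 0.10). Rpl39 stood at -0.0038 (SE 0.10) and Rpl39l at 0.25 (SE 0.17). Rpl10, which joins the large subunit late, stood at -0.00091 (SE 0.09), while the testis relative Rpl10l was well above background on 1 array of 3M and 2 of 29M with its brighter probe and on none with the other.
Rpl22 and Rpl22l1 stood at 0.013 (SE 0.10) and 0.043 (SE 0.11). Rpl36a and Rpl36al, which encode nearly the same protein, stood at -0.10 (SE 0.09) and -0.13 (SE 0.10), Rpl7 and Rpl7l1 at 0.059 (SE 0.09) and -0.11 (SE 0.08). Rps27 and the p53-induced Rps27l stood at 0.10 (SE 0.09) and 0.057 (SE 0.11), and the X-linked Rps4x at 0.12 (SE 0.10) beside -0.23 (SE 0.11) of Rps4l. The differences between the members of a pair were not tested. Of the 28 genes named by rule, 21 kept their sign in every other setting that tested them (up to 16 each), and Rpl10, Rpl22, Rpl22l1, Rpl39, Rpl7, Rps27l and Rps6 did not.

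The rest of the translation apparatus was read from lists. Further genes of the cytosolic ribosome that the symbol rule leaves out (8 genes) had a median change of -0.0004 with 0 called, from -0.16 (Rpsa, the laminin receptor protein of the small subunit) to 0.070 (Fau, a ubiquitin-like fusion to a small subunit protein). The 78 genes of mitochondrial ribosomal proteins had a median of 0.020 with 0 called, and reached from -0.26 (Mrps21) to 0.37 (Mrpl21). Elongation and termination factors (13 genes) had a median of 0.062 with 0 called, from -0.30 for the exchange factor Eef1d to 0.38 for the release factor Etf1.
Among 38 initiation factors the median was 0.082 (0.0098, 0.13 and 0.015 on slides 1, 2 and 3). Of these 29 lay above 0 and 0 were called on their brightest probe. The range was from -0.25 for Eif2s1, a subunit of the factor that brings the initiator tRNA, to 0.46 for Eif4b (SE 0.10, adjusted p = 0.062), a cofactor of the helicase Eif4a that misses the call by its size. A dimmer probe of Eif3j1 was called lower in 29M (-0.52, SE 0.12, adjusted p = 0.066 in limma), the only called probe in these translation lists. In the lists before the initiation factors 4 of 8, 45 of 78 and 10 of 13 genes lay above 0, in that order. In the lists that follow it was 15 of 40, 10 of 19 and 5 of 9.
The 40 genes of ribosome assembly and ribosomal RNA synthesis had a median of -0.013 with 0 called, from -0.39 (Pes1, needed for processing of large subunit RNA) to 0.34 (Polr1d, a subunit of RNA polymerases I and III). The 19 genes of mTOR and Myc control of translation had a median of 0.0084 with 0 called and a wider range, from -0.62 (Mycn, SE 0.17, adjusted p = 0.118) to 0.56 (Myc, SE 0.22, adjusted p = 0.236). The 9 genes of the stress response through eIF2 had a median of 0.0035 with 0 called, from -0.31 (Ppp1r15b, which directs a phosphatase to eIF2) to 0.37 (Eif2ak2, the kinase activated by double-stranded RNA, adjusted p = 0.064). At an unadjusted p under 0.05 these lists held 0 of 8, 6 of 78, 1 of 13, 5 of 38, 3 of 40, 6 of 19 and 2 of 9 genes in the order given, beside 16.3% of all probes.

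Markers of some cell types differed between the ages while the ribosomal protein genes lay close to 0. Of 12 microglia markers 4 were called higher in 29M (C1qa 0.87, Tyrobp 0.81, Trem2 0.66 and C1qb 0.57), with a median of 0.43. Their median level per array, centred on each gene's mean, ran from -0.33 to -0.07 in 3M and from 0.08 to 0.35 in 29M. Of 10 astrocyte markers 1 was called higher (Gfap 0.72), with a median of 0.17. Only 6 of the 10 lay above 0, and the lowest stood at -0.20. The astrocyte medians were 0.21, -0.029 and 0.044 on slides 1, 2 and 3. Neuron markers had a median of 0.011 with 0 of 15 called. The medians of 9 oligodendrocyte, 8 endothelial, 9 choroid plexus and 6 red blood cell markers were 0.19, 0.12, 0.17 and -0.31. On the brightest probes 0 of these were called, and dimmer probes of the oligodendrocyte genes Ermn and Mbp were called higher. The median levels per array overlapped between the ages in each of these lists. On slides 1, 2 and 3 the medians were 0.19, -0.56 and 0.39 for choroid plexus and -0.71, -0.13 and 0.017 for red blood cell markers. All markers of these lists were well above background on all 8 arrays. In bulk tissue, more or fewer cells of a type and more or less RNA per cell cannot be told apart, and the part of these markers in the ribosomal protein values was not tested.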

How the data were processed

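All 8 arrays were used, 4 per age group as given by the sample titles. For each array the authors deposited scanner output as linear intensity, made per the file headers with Agilent Feature Extraction 10.7.3.1 on a G2505C scanner. The deposited table of the whole series held local background intensities, in most columns of another array than named, and was not used. The files used here hold the median spot intensity, which was taken as input.

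Control and outlier spots (127 to 190 per array) were dropped, intensities were put on a generalized log2 scale by variance stabilising normalization (own implementation, least trimmed squares quantile 0.9, 7 iterations), and replicate spots were averaged. No dim probe was filtered. In R 4.3.3, limma 3.58.1 fitted age to 39408 probes with at least 3 usable arrays per group, with Benjamini-Hochberg adjustment over all of them. A call required an adjusted p under 0.1 and a log2 change of at least 0.5 (1.414-fold), as in the study's methods. The procedure was run on simulated data with a common spread for all probes and changes larger than that of any member. That run does not show how well changes of the size seen in members are found. The number of arrays limits the precision.

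Accessions in the files were matched to RefSeq genes of GRCm38.p6, which named 26055 of 39429 probes. Members and gene lists were chosen with earlier results of these data known, so no list was tested. Named genes are called members, the 6 largest differences in each direction, paralogue pairs, the stalk, Rps6, and in other lists called genes or else the extremes. Same-numbered replicates did not vary together (correlations of their deviations -0.27, 0.22, -0.21 and 0.085), so the numbers were not used as pairs. Some members are not reported here by name or with a label in a plot, and they stay in all counts and medians over the members.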

Additional observations from a re-analysis of the deposited data

How the results depend on the processing

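No member probe was called, higher or lower, in any of the 16 other fits or at an adjusted p of 0.05, and the lowest adjusted p of a member ran from 0.086 to 0.261 over the fits. The value of 0.086 was that of Rpl23 after normexp and quantile normalization, where its change stayed under 0.5. Member probes at an unadjusted p under 0.05 numbered 4 to 20 in these fits. The median change of the ribosomal protein genes was 0.034 with the processed signal scaled to the 75th percentile, 0.056 with normexp, 0.064 with the mean over all probes of a gene and 0.025 with slide as a fixed block. It ran from 0.021 (without 29M replicate 3) to 0.092 (without 29M replicate 2) when single arrays were left out. Without the 3 arrays of slide 1, which was chosen after seeing the data, it was -0.025. With the replicate number as a block it was 0.054, 0 member probes were called, and 285 probes higher and 162 lower were called over the whole array in place of 478 and 279. Over the whole array these counts also moved clearly without 3M replicate 1 (850 and 536), 3M replicate 2 (253 and 129), 3M replicate 3 (295 higher), 29M replicate 1 (276 and 127), 29M replicate 2 (282 and 155) and 29M replicate 4 (133 lower). The cause was not tested. Of 447 values of named genes, 445 moved by less than the SD between replicates and 2 by more (Rpl39l and Rplp2, both with the processed signal). Naming probes from a gene name column alone was not run, since the files used here hold accessions.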
